A study of Homo sapiens with 16 samples.

Results

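The 6 genes described here, MCL1, BCL2L11, BCL2, BCL2L1, XIAP and BIRC5, govern whether a cell enters apoptosis. They were chosen by name in a table of Argonaute 2 (Ago2) peaks, and they hold 29 of its 4768 peaks. MCL1 had 11 peaks, BCL2L11 had 14 and XIAP had 4, while BCL2, BCL2L1 and BIRC5 had no peak in the table. The group was proposed with the peak numbers and log ratios of these data known, so those values are described and not tested. The material came from 293S, a long-established line of human embryonic kidney cells. The cells were either untreated or given 1 µM hippuristanol for 30 min, with 2 replicates of each kind. Hippuristanol, a compound from corals, inhibits the RNA helicase eIF4A and with it the loading of ribosomes onto mRNAs. Each replicate number of a treatment has 3 CLIP libraries, made with Ago2 antibodies of different suppliers, and 1 RNA-seq library. The sample titles do not say whether these came from the same culture. In CLIP, RNA is fixed to a protein by crosslinking, recovered with an antibody to that protein and sequenced.

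Apoptosis through the mitochondrion is set by the BCL2 family. Anti-apoptotic members such as MCL1, BCL2, BCL-XL (the product of BCL2L1) and BCL-W hold the pore-forming effectors BAX and BAK in check, and BH3-only proteins such as BIM (the product of BCL2L11) and NOXA (the product of PMAIP1) bind and neutralise them. XIAP blocks caspases directly, and BIRC5 encodes survivin, a relative of XIAP that also serves in cell division. MCL1 protein is short-lived and depends on continued translation, and BCL2L11 is a well-described target of the miR-17 to miR-92 cluster. Ago2 is the protein that microRNAs guide to their targets, mostly in 3′ untranslated regions (3′ UTRs), by pairing of the seed at the microRNA's 5′ end.

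The microRNA seeds matched in these 3′ UTRs are shown first, because seed pairing is what brings Ago2 to an mRNA. The search covered 14 microRNAs described as regulators of these genes, which fall into 10 families by seed. Mature sequences are from RefSeq (GRCh38.p14), and all 14 were found. The 7 below each represent a family with a match in MCL1 or BCL2L11, written 5′ to 3′ with the seed, bases 2 to 8, in capitals.
miR-17-5p: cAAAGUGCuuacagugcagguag
miR-92a-3p: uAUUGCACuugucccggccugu
miR-101-3p: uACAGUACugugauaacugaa
miR-29b-3p: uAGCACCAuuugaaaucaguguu
miR-181a-5p: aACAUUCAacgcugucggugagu
miR-19b-3p: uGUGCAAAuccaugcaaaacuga
miR-15a-5p: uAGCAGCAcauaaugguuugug
The seed of miR-17-5p is shared by miR-20a-5p and miR-106b-5p, that of miR-92a-3p by miR-25-3p, and that of miR-15a-5p by miR-16-5p.

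The 3′ UTR of MCL1 searched here is that annotated for NM_001197320, 2824 nt long with 38.8% GC. It held 4 matches to the 7 bases opposite a seed, from 4 of the 10 families. In the same annotation the 3′ UTR of another form, NM_182763, is 294 nt long, and it was not searched. The matches are printed as mRNA sequence, 5′ to 3′, from GENCODE 29 transcripts (GRCh38), with the match in capitals.
MCL1 match to miR-92a-3p: ccttactgtaaGTGCAATagttga
MCL1 match to miR-101-3p: ctgtaagcctcaGTACTGTacaagg
MCL1 match to miR-29b-3p: ctagtctaaccaTGGTGCTattatt
MCL1 match to miR-17-5p: aaggacctaaaaGCACTTTatgtag
Counted from the base after the stop codon, they began at positions 12, 462, 1329 and 2226, in the order printed. All 4 were followed by an A. Among 2556 annotated 3′ UTRs of like length (within 25% of that of MCL1), 19.1% held GTGCAAT, 17.3% GTACTGT, 23.8% TGGTGCT and 37.6% GCACTTT, so each of these matches is found in many 3′ UTRs of that length.

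The 3′ UTR of BCL2L11, 4409 nt long with 43.2% GC, held 7 matches from 6 families. It has the same 3 families as MCL1, those of miR-17-5p, miR-92a-3p and miR-101-3p, with miR-92a-3p matched at 2 places. In place of miR-29b-3p it has matches to miR-181a-5p, miR-15a-5p and miR-19b-3p.
BCL2L11 match to miR-181a-5p: ggaagtttgttgTGAATGTaaagga
BCL2L11 match to miR-15a-5p: tacgcccctttgTGCTGCTggcttt
BCL2L11 match to miR-17-5p: ctcctgactagaGCACTTTactctg
BCL2L11 match to miR-101-3p: ctggatgtctctGTACTGTatgtat
BCL2L11 first match to miR-92a-3p: ccaaatgtctgtGTGCAATtgtgtt
BCL2L11 match to miR-19b-3p: gcttacttgtgtTTTGCACtgatga
BCL2L11 second match to miR-92a-3p: gccactttacttGTGCAATactgct
They began at positions 403, 1180, 2194, 2450, 2890, 4287 and 4329 after the stop codon. Of 1716 annotated 3′ UTRs of like length, 44.9% held TGAATGT, 46.3% TGCTGCT, 49.1% GCACTTT, 24.7% GTACTGT, 27.8% GTGCAAT and 32.4% TTTGCAC. Only the mRNA strand was searched, and no 2 of the printed matches overlap. The peaks are on hg19 and the transcripts on GRCh38, so whether a match lies under a peak was not determined. Seed matches were not limited to genes with peaks. The 3′ UTR of XIAP (6798 nt) held 8 from 5 families and that of BCL2 (5279 nt) held 9 from 7 families. That of BIRC5 (2082 nt) held 2 from 2 families, and that of BCL2L1 (1497 nt) held 1, to let-7a-5p. Of 3′ UTRs of like length, 37.8% to 62.6% held each sequence matched in XIAP, and 26.9% to 55.5% each one matched in BCL2. For BIRC5 these shares were 23.8% and 27.8%, and for BCL2L1 9.22%. Whether BCL2, BCL2L1 and BIRC5 were expressed in these cells was not analysed here.

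The authors' table gives each peak 1 log average over treated and untreated cells and 1 log ratio of hippuristanol over untreated. Both are pooled over libraries, and the depth behind them is unknown. Which logarithm was used is not stated, so no folds are given, and with 1 value per peak no difference has a replicate check, a test or a p-value. Over the 4718 peaks with distinct values, the log ratio had a median of 0.15 with 10th and 90th percentiles of −0.72 and 1.05. Of these peaks 59.1% lay above 0 and 40.9% below.

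MCL1 mRNA had higher Ago2 values under hippuristanol at most of its peaks. Of the 11 peaks, 9 lay above 0 and 2 below, against a background of 59.1% above 0, and the median log ratio was 0.79 with an SD over peaks of 0.75. The gene lies on the minus strand of chromosome 1 (hg19), and its peaks are numbered here from 5′ to 3′. In the authors' deposited table the first peak, in coding sequence (CDS) at 150550814 to 150550878, had a log ratio of 1.46, and the second, also in CDS at 150549860 to 150549895, had 0.79. The third peak, at 150549824 to 150549848, had 1.58 in the authors' deposited table, the highest of the gene. These first 3 peaks, around and upstream of the stop codon, were all well above the median of the table.

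The other 8 peaks of MCL1 lay in the 3′ UTR and were mixed. In the authors' deposited table the fourth and the fifth, 61 nt apart, had 1.21 and −0.11. The sixth to the ninth had 0.46, 1.22, 0.88 and 0.11 in the authors' deposited table. The tenth and the eleventh, nearest to the 3′ end at 150547337 to 150547381 and 150547225 to 150547246, had −0.83 and 0.07 in the authors' deposited table. The peaks with low values thus stood beside ones with high values in the middle of the 3′ UTR, while both peaks at its 3′ end lay below the median of the table. Across the 11 peaks, which share a transcript, the log ratio and the genomic distance from the first peak had a Pearson's r of −0.72 and a Spearman's rho of −0.65. With the 9 peaks annotated as 3′ UTR alone, the median was 0.46.

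The annotation of the MCL1 peaks names 2 transcripts. RefSeq NM_182763 is the form that skips the middle exon and encodes a shortened MCL1 of 271 residues, which lacks the membrane anchor and is described as promoting death, whereas the full-length form (NM_021960) has 350 residues. The table assigned 9 of the peaks to NM_182763 and the first and the third to NM_001197320, a form of 197 residues. The second peak (CDS of the former) and the third (3′ UTR of the latter) are 12 nt apart in the genome. These transcripts share most of their sequence, so the assignment alone does not show which form Ago2 was bound to. Whether the first peak lies in the exon that NM_182763 skips was not determined here.

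**Figure D1:**
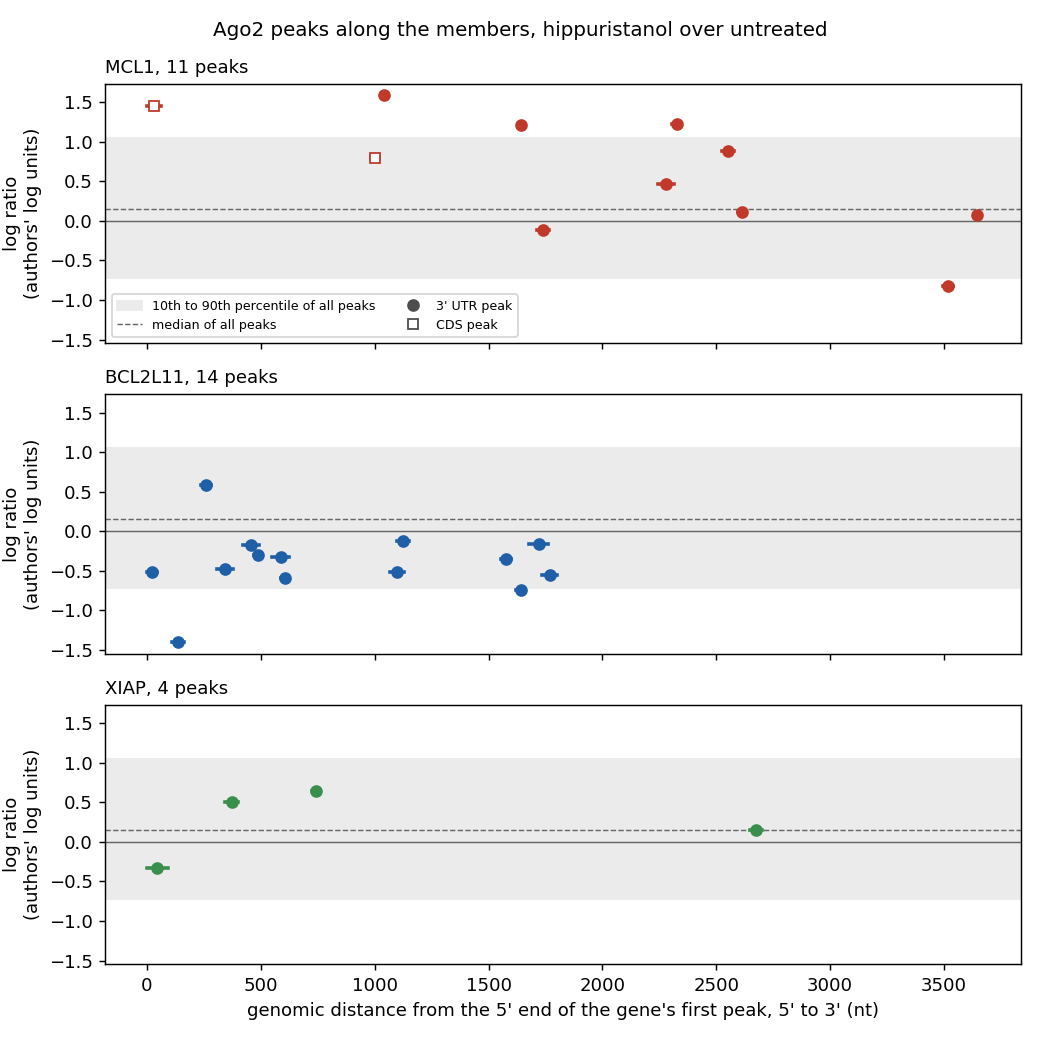
Log ratio of hippuristanol over untreated (y axis, authors' log units) of each Ago2 peak of MCL1, BCL2L11 and XIAP against genomic distance from the gene's first peak in nt (x axis); bars give peak widths, open squares CDS peaks, filled circles 3′ UTR peaks, the dashed line the median of all peaks (0.15) and the grey band their 10th to 90th percentile. Of the BCL2L11 peaks 13 lie below 0, whereas the MCL1 peaks run from 1.58 near the stop codon to −0.83 near the 3′ end.

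BCL2L11 mRNA, by contrast, had lower values under hippuristanol at nearly every peak. Of its 14 peaks, 13 lay below 0 and 1 above, against a background of 40.9% below 0 (41.3% among 3′ UTR peaks). The median log ratio was −0.42 with an SD over peaks of 0.43. All 14 were in the 3′ UTR on the plus strand of chromosome 2 (hg19), between 111924168 and 111925970, annotated to NM_001204109. They fell into 3 groups with gaps of 443 and 402 nt between them.

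The first group of BCL2L11 held 8 peaks within 624 nt. In the authors' deposited table the first 4 had log ratios of −0.52, −1.40, 0.58 and −0.48. The second of these, at 111924280 to 111924332, was the lowest of the gene, and the third, at 111924407 to 111924451, was the only one above 0, although just 75 nt lie between them. The next 4 had −0.17, −0.30, −0.33 and −0.59 in the authors' deposited table. The 2 peaks of the second group had −0.51 and −0.12 in the authors' deposited table. The 4 peaks of the third group had −0.35, −0.74, −0.16 and −0.55 in the authors' deposited table. Group medians were −0.41, −0.32 and −0.45 in that order. The log ratio had no trend over the 1802 nt that the peaks span (Pearson's r 0.02, Spearman's rho −0.0022, n = 14 peaks of 1 transcript). The annotated 3′ UTR is 4409 nt long, so the rest of it is not covered.

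Some of these peaks share sequence and so are not separate measurements. In BCL2L11 there were 4 overlapping pairs, sharing 22 to 36 nt, whose log ratios differed by 0.14, 0.26, 0.39 and 0.39. In MCL1 the sixth and seventh peaks shared 8 nt and differed by 0.76. With the higher log average of each overlapping pair kept, BCL2L11 had 10 peaks with a median of −0.34, 9 of them below 0, and MCL1 had 10 with a median of 0.83, 8 of them above 0.

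Peak by peak, the log ratio of MCL1 was the higher in 137 of the 154 possible pairs of an MCL1 and a BCL2L11 peak (89.0%), and the medians differed by 1.21. The ranges overlapped. Of the MCL1 peaks 6 lay above the highest BCL2L11 peak, and 1 BCL2L11 peak lay below the lowest MCL1 peak. With 3′ UTR peaks only, MCL1 was higher in 109 of 126 pairs (86.5%) and the medians differed by 0.88. Without overlapping peaks it was higher in 88 of 100 pairs, with a difference of 1.17. The pair of genes was picked for this contrast, so these counts describe it and carry no test.

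The log averages of the 2 genes lay at different heights. Those of MCL1 ran from −7.25 to −6.20 with a median of −7.11, and those of BCL2L11 from −6.67 to −4.00 with a median of −6.21. In 143 of the 154 pairs the BCL2L11 peak had the higher log average. A log average reflects the amount of an mRNA as well as its occupancy by Ago2, and the RNA-seq libraries were not used here. The same holds for a log ratio, and how far it follows a change in the amount of the mRNA was not tested. The BCL2L11 peaks with the highest log averages were the 2 that overlap at the 3′ end of the third group, at 111925847 to 111925930 and 111925902 to 111925970. They had log averages of −4.00 and −4.14 in the authors' deposited table, above 93.2% and 92.3% of all peaks. The fifth peak, at 111924589 to 111924661, followed with −4.81 in the authors' deposited table, above 85.8%. In MCL1 the seventh peak, at 150548532 to 150548573, led with −6.20 in the authors' deposited table, above 62.5% of all peaks.

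The contrast was present where the log averages of both genes overlap, between −6.67 and −6.20. MCL1 had 3 peaks in this range, the fourth, seventh and eighth, with log ratios of 1.21, 1.22 and 0.88 in the authors' deposited table. BCL2L11 had 7 there, 6 of them below 0, with a median of −0.51. All 21 pairs had the MCL1 peak higher, while the 510 peaks of the whole table in this range had a median of 0.18 with 39.4% below 0. Set among the 200 peaks nearest in log average, 13 of the 14 BCL2L11 peaks lay below the 50th percentile of the log ratio, with a median percentile of 20.0, and 7 of the 11 MCL1 peaks lay above it, with a median percentile of 80.0. Over the peaks of each gene, log average and log ratio had a Spearman's rho of 0.10 in MCL1 (n = 11) and 0.46 in BCL2L11 (n = 14).

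**Figure D2:**
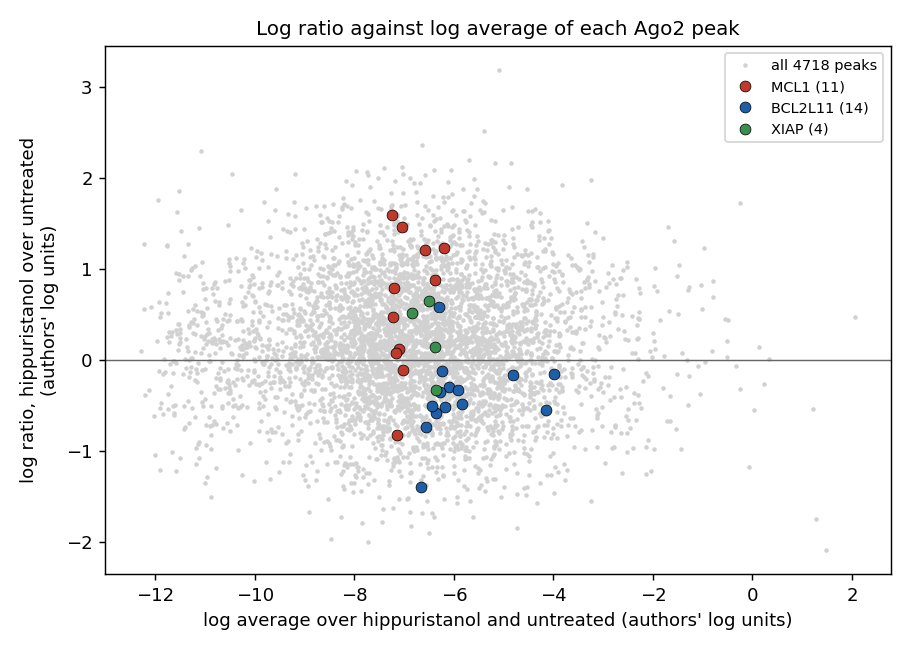
Log ratio of hippuristanol over untreated (y axis) against log average over both treatments (x axis), both in the authors' log units, for all 4718 peaks with distinct values (grey) and the peaks of MCL1, BCL2L11 and XIAP (coloured). Between log averages of −6.67 and −6.20 the 3 MCL1 peaks lie above all 7 BCL2L11 peaks.

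XIAP, the direct inhibitor of caspases, lay between the other genes. Its 4 peaks were all in the 3′ UTR on the plus strand of the X chromosome (hg19). In the authors' deposited table they had log ratios, from 5′ to 3′, of −0.33 (123041465 to 123041556), 0.51 (123041810 to 123041864), 0.64 (123042188 to 123042223) and 0.14 (123044111 to 123044165). Thus 3 of the 4 lay above 0, where 59.1% of all peaks did, and the one at the 5′ end lay below 0. Above the median of all gene medians, 0.17, lay 2 of the 4. The median was 0.33 with an SD over peaks of 0.44. Without the second or the third peak the median was 0.14, and without the first or the fourth it was 0.51, so 4 peaks fix it only loosely. Log averages ran from −6.85 to −6.36, close to the median of the table, −6.76. The order of the gene medians was therefore MCL1, XIAP and BCL2L11, but the peaks of XIAP overlapped in log ratio with those of both neighbours.

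Among the 160 genes with at least 5 distinct peaks, MCL1 and BCL2L11 stood toward opposite ends. MCL1 had a higher median than 152 of these genes and a lower one than 7. BCL2L11 had a lower median than 150 and a higher one than 9. The peaks of BCL2L11 were also close together in value: 138 of the 160 genes had a larger SD, and the median SD was 0.61. Those of MCL1 were spread out, with 37 genes having a larger SD. Beside BCL2L11, with 13 of 14, just 2 of the 160 genes had as large a share of their peaks below 0. They were H1F0 with 6 of 6 and JARID2 with 5 of 5, both named after their values were seen. A gene with fewer than 14 peaks reaches that share only with every peak below 0. PMAIP1 and NACC2, for example, had 6 of 7 below 0 and fell short. Without overlapping peaks, BCL2L11 itself had 9 of 10 below 0. For MCL1, 35 of the 160 genes, itself included, had as large a share above 0.

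The genes with a median log ratio most like that of MCL1, among those with at least 5 peaks, were SPEN (0.80 over 7 peaks), CANX (0.77 over 14) and UHMK1 (0.75 over 17). SPEN is a transcriptional repressor, CANX the chaperone calnexin of the endoplasmic reticulum and UHMK1 a kinase. Those most like BCL2L11 were ARL6IP1 (−0.43 over 8 peaks), WDR6 (−0.43 over 7) and NRARP (−0.46 over 7), the last a regulator of Notch signalling. Likeness was measured by the difference of medians, at most 0.047, over the peaks and not over samples. Log averages were not matched. Their medians were −9.54 in SPEN, −9.80 in CANX and −7.83 in UHMK1, against −7.11 in MCL1. ARL6IP1, WDR6 and NRARP had −6.85, −6.29 and −4.95, against −6.21 in BCL2L11. ARL6IP1 had 3 of 8 peaks above 0, and WDR6 and NRARP had 2 of 7 each, against 1 of 14 in BCL2L11.

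**Figure D3:**
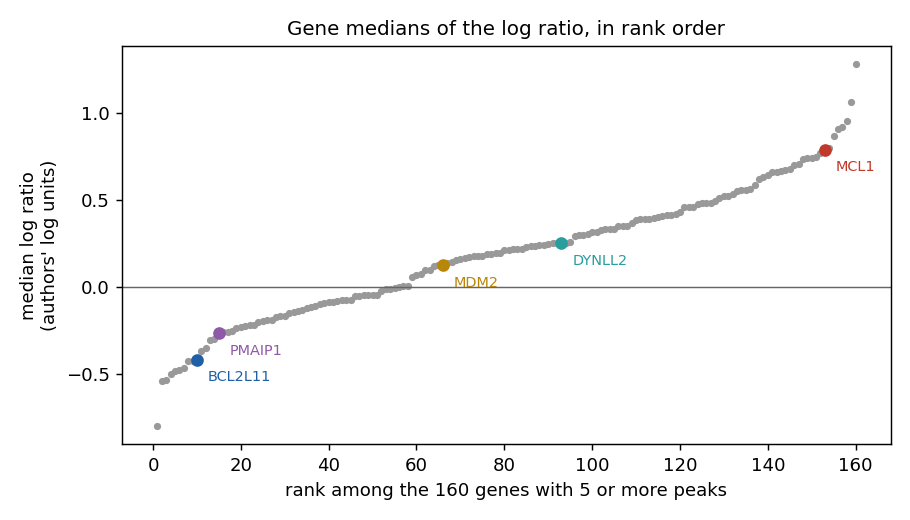
Median log ratio of hippuristanol over untreated (y axis, authors' log units) of the 160 genes with 5 or more distinct peaks, in rank order (x axis), with apoptosis genes coloured. BCL2L11 at −0.42 and PMAIP1 at −0.27 lie near the low end, MCL1 at 0.79 near the high end, and MDM2 at 0.13 and DYNLL2 at 0.25 between them.

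The rest of the apoptosis machinery was read from 8 lists of 77 further genes, of which 16 had a peak. Gene medians lay above 0 in 12 and below 0 in 4, where 60.5% of all 2213 genes lay above 0. The median of the 16 was 0.23, against 0.17 for all genes. The 10 genes with 1 peak had a median of 0.56, 9 of them above 0, against 0.15 for all genes with 1 peak. The 6 genes with more peaks had a median of −0.07, 3 of them above 0, against 0.19 for all such genes.

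Among genes listed as BCL2 family or related, beyond MCL1 and BCL2L11, 5 of 21 had a peak. They held 14 peaks in all, 11 of them below 0, where 40.9% of all peaks lay below 0. Of these 14 peaks 7 are from PMAIP1 alone. The 3 family genes with 2 or more peaks had medians below 0, where 60.5% of all genes lay above 0. PMAIP1, whose product NOXA is a BH3-only protein that binds MCL1, had 6 of 7 peaks below 0 and a median of −0.27 (chromosome 18, plus strand). In the authors' deposited table its 5′ UTR peak had −0.27, its CDS peak −0.19, and the 3′ UTR peaks from 5′ to 3′ −0.38, −0.75, −0.50, −0.13 and 0.29. The last 3 of these form a chain of overlapping peaks, so the values that differ in sign come from neighbouring sequence. PMAIP1 had a lower median than all but 14 of the other genes with at least 5 peaks.

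BAX, an effector that permeabilises the mitochondrion, had 2 peaks in its 3′ UTR (chromosome 19, plus strand) with −0.52 and −0.07 in the authors' deposited table. BCL2L2 encodes BCL-W, an anti-apoptotic protein, and had 3 peaks in its 3′ UTR (chromosome 14, plus strand) with −0.19, −0.58 and −0.86 from 5′ to 3′ in the authors' deposited table. Low log ratios were therefore found for genes that promote death and for 1 that prevents it, and MCL1 and BCL2L2, both anti-apoptotic, lay on opposite sides of 0. The 2 other genes of these lists had a single peak above 0 each in the authors' deposited table. They were BNIP2, listed as a related gene, with 0.97 in CDS and BCL2L12 with 0.58 in the 3′ UTR.

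High log ratios were listed for single peaks of the apoptosome and of a death receptor. APAF1, the scaffold of the apoptosome, had 1 peak in CDS (chromosome 12, 99059369 to 99059405, plus strand) with 1.59 in the authors' deposited table, above 97.9% of all peaks. FAS, a death receptor, had 1 peak in its 3′ UTR (chromosome 10, 90774750 to 90774783, plus strand) with 1.09 in the authors' deposited table, above 91.1% of all peaks. TNFRSF10B, a receptor for the death ligand TRAIL, had −0.27 at its single peak in the authors' deposited table. BIRC6, a giant relative of XIAP, had 0.0032 in the authors' deposited table and so lay at 0. A single peak carries no check of its value within the gene.

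Upstream regulators all had gene medians above 0, 6 of 6 with a peak among 13 listed, where 60.5% of all genes lay above 0. Against the median of all gene medians, 0.17, MDM2 at 0.13 and a gene with 1 peak at 0.15 lay lower, and the others higher. FBXW7, a ubiquitin ligase subunit that marks MCL1 for degradation, had 0.44 and 0.63 at its 2 peaks in the authors' deposited table. DYNLL2, the dynein light chain that tethers the BH3-only protein BMF, had 10 peaks from −1.38 to 1.37 with a median of 0.25, 7 of them above 0. MDM2, a ubiquitin ligase, also had 10 peaks, from −0.35 to 2.03 with a median of 0.13, 7 of them above 0. Among all peaks, 59.1% lay above 0 and the median was 0.15. The peaks of DYNLL2 and MDM2 thus spread over both signs and did not show the one-sided pattern of BCL2L11.

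**Figure D4:**
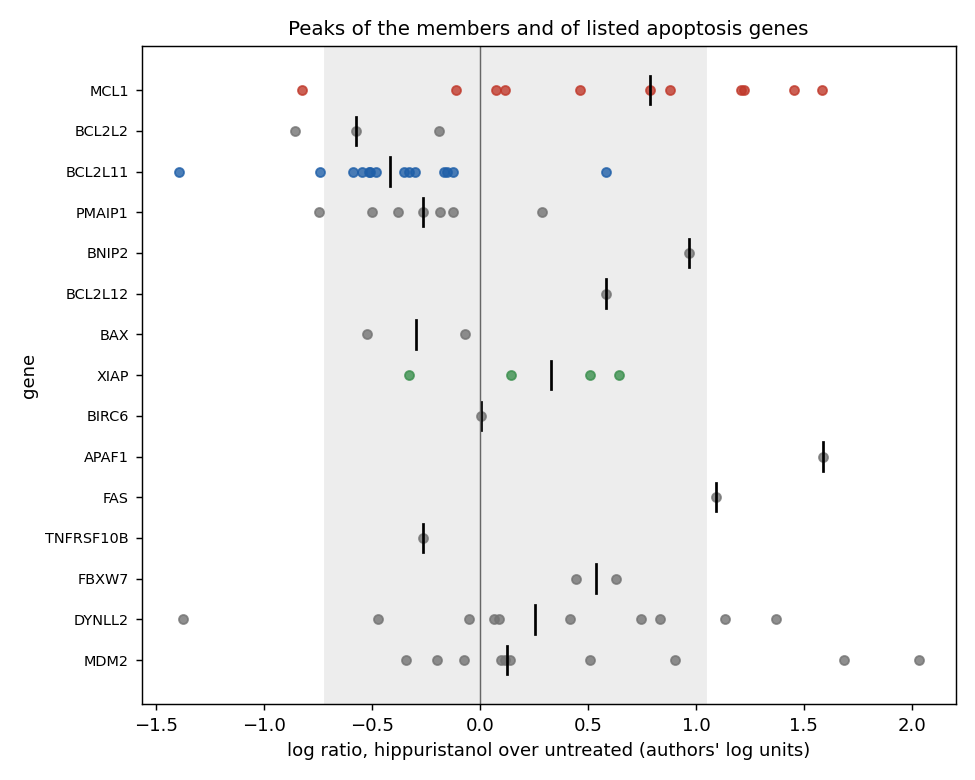
Log ratio of hippuristanol over untreated (x axis, authors' log units) of every peak (points) of MCL1, BCL2L11, XIAP and the listed apoptosis genes described in the text (y axis), with the gene median as a black bar and the 10th to 90th percentile of all peaks as a grey band. BCL2L2, BCL2L11, PMAIP1 and BAX have medians below 0, MCL1 has 0.79 and the single peak of APAF1 lies at 1.59.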

How the data were processed

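The labels describe 16 libraries of 293S cells, 12 Ago2 CLIP and 4 RNA-seq, numbered as 2 untreated and 2 hippuristanol-treated replicates. Per the file headers, the table analysed gives 2 scores that the authors had normalized and deposited per peak, namely a log average for treated plus untreated cells and a log ratio of treated to untreated. The submitters' processing notes list hg19 and the tools Bowtie 0.12.8, TopHat and DESeq without a role. How peaks were called, which logarithm was taken, how libraries were pooled and whether starts count from 0 or 1 is not stated there. Depth per library is unknown.

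Peaks of a gene with identical values, 50 pairs and none among these genes, were counted once. Medians, SDs, percentiles and pair counts were computed with Python 3.11.15 and pandas 2.3.3, and the code was tested on simulated data. Seed matches were sought in 3′ UTRs of GENCODE 29. For MCL1, BCL2L11 and XIAP the transcript named in the table with the longest 3′ UTR was used, otherwise the gene's longest. Every peak of the 6 genes was to be named, up to 4 genes per pathway list with the most peaks, and the 3 genes most like MCL1 and BCL2L11 each. The genes and lists were chosen with earlier results of these data known. Some listed genes are counted but not reported here by name.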

Additional observations from a re-analysis of the deposited data

How the results depend on the processing

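Every alternative kept the sign of the 6 summary values, and 28 of 47 moved them by at most 0.1 log units. Some of these 28 could not have moved and are no check. MCL1, BCL2L11 and XIAP hold no identical pairs, so counting every listed peak left them unchanged. All peaks of BCL2L11 and XIAP were in the 3′ UTR, and XIAP had no overlapping peaks. All 14 BCL2L11 peaks lay above the table's median log average, and subtracting a constant leaves a difference as it was. The values that moved by more than 0.1 are given below, and for 1 peak left out in turn both ends of the range. With 3′ UTR peaks only, the MCL1 median was 0.46 and its difference from BCL2L11 0.88. With means in place of medians, MCL1 had 0.62, the difference was 1.03, the difference in log average −1.10 and the pathway genes had 0.45. With peaks above the table's median log average only, which leaves 3 peaks of MCL1, MCL1 had 1.21, XIAP 0.14, the difference was 1.63, the difference in log average −0.17 and the pathway genes had 0.56. After subtraction of the median of all gene medians, 0.17, MCL1 had 0.62, BCL2L11 −0.59, XIAP 0.16 and the pathway genes 0.065. Leaving out 1 peak in turn gave 0.63 to 0.83 for MCL1, 0.14 to 0.51 for XIAP, and 1.04 to 1.27 for the difference between MCL1 and BCL2L11. No paired analysis was possible because the table holds 1 pooled value per peak and no values per library. For the same reason no replicate could be left out.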
